A study of Mus musculus with 24 samples.

Results

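The protein phosphatase families were examined for AGO2 binding in 3′ UTRs of activated CD4+ T cells lacking miR-155 and of wild-type cells. Genes were taken by symbol: Ppp followed by a digit, or a start of Ppm1, Ptpn, Ptpr, Ptp4, Dusp or Inpp. Dusp2, Dusp11 and Inpp5d were left out by the same rule. It found 54 of the 4165 genes and 174 of the 14634 AGO2 peaks in the authors' deposited table. The rule reads symbols only, no measured value, but the members were chosen with earlier results of these data known. It also takes in genes that are not protein phosphatases themselves: regulatory subunits, 6 inositol phosphatase genes (Inpp), and Ptprcap, which encodes a protein associated with CD45.

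AGO2 HITS-CLIP crosslinks the Argonaute protein to the RNA it holds, immunoprecipitates it and sequences the bound fragments. The libraries came from miR-155 KO and from WT C57BL/6 mice, 12 of each genotype and 24 in all. In both genotypes, CD4+ T cells of spleen and lymph nodes were activated for 4 days with antibodies to CD3 and CD28 at 1 µg/mL, and with IL-2 at 20 U/mL. Replicates 1 to 6 carried linker 1 in KO and linker 2 in WT, and replicates 7 to 12 carried linker 2 in KO and linker 1 in WT, so genotype and linker cannot be told apart within either set of replicates. The table gives 1 value per genotype and peak, pooled over libraries: no spread between replicates and no linker-specific value could be computed, and all folds below are descriptions without an error.

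Scaled reads summed to 374126 in KO and 371088 in WT over all peaks; the depth of the libraries is unknown. All 7 genes looked up for CD4+ T cells (Cd4, Cd3e, Cd3g, Cd28, Icos, Il2ra and Cd69) had peaks, with 9318 scaled reads in KO and 7366 in WT. Not all of them are particular to CD4+ cells. None of the 4 markers of CD8+ and NK cells, of B cells, of myeloid cells, or of erythroid cells and platelets had a peak in the table used here. A gene without an AGO2 peak may still be expressed. In bulk samples such as these, fewer cells of a type and less RNA per cell cannot be told apart. RNA levels were not used here, so AGO2 reads per transcript are not known.

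Protein phosphatases remove the phosphate groups that kinases add. Serine and threonine phosphatases of the PPP family owe much of their specificity to regulatory subunits that join a few catalytic subunits, whereas PPM phosphatases act as single chains. Tyrosine phosphatases set the activity of T cell receptor kinases, dual-specificity phosphatases (DUSPs) switch off MAP kinases, and inositol phosphatases act on inositol lipids and soluble inositol phosphates. MicroRNAs guide AGO2 to 3′ UTRs through pairing of their seed, bases 2 to 8, and in mouse T cells miR-181 is known to repress several phosphatases of the T cell receptor pathway, among them Dusp5, Dusp6 and Ptpn22.

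The mature microRNAs whose matches lay in the peaks discussed most are shown 5′ to 3′ with the seed in capitals, from RefSeq (GRCm38.p6).
miR-155: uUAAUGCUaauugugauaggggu
miR-181a: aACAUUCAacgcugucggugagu
miR-23a: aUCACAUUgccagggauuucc
miR-26a: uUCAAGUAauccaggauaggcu
miR-17: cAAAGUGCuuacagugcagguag
miR-29a: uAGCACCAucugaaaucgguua
miR-15a: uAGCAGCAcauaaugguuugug

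Windows from the peak sequences are shown for 3 of the 4 peaks with a miR-155 match and for a selection of peaks with another match, taken for their reads or for overlapping matches. They run 5′ to 3′ on the transcript strand, with the match in capitals. Peaks are numbered from the 5′ end of each 3′ UTR. The first set holds miR-155 matches, an 8-nt match in Ppp1cb and 6-nt matches in Ptprc and Ptp4a1. Peak 1 of Ptp4a1 also holds an 8-nt miR-29 match, TGGTGCTA, in lower case in its window.
Ppp1cb peak 11: ttttaagggttAGCATTAAcaaatgtcaag
Ptprc peak 12: atctttgacttGCATTActgtgtatttatc
Ptp4a1 peak 1: tatatggtgctagaagtcacttGCATTAta
The next 3 hold a match to miR-181 and one to miR-23 that overlap, and the capitals mark the 10 nt covered by both together.
Dusp5 peak 4: taaacccatgTGAATGTGAAgagaagcagt
Inpp5a peak 2: tattaagaacTGAATGTGAAgtttatagct
Ppp1cb peak 8: ttcactaataattgccATGTGAATGTtgtt
The following each hold a 7-nt or 8-nt match to 1 of the families, to miR-181 in Ptprc peak 3 and Dusp6, miR-23 in Ptprc peak 4, miR-26 in Ptpn22, miR-17 in Ppp1r3b, miR-29 in Ppp1cb and Ppp1r15b, and miR-15/16 in Ppp1r7 and Ppp2r1b. Peak 3 of Ptprc holds a 6-nt miR-23 match, ATGTGA, besides.
Ptprc peak 3: GAATGTAtatgtgagagagggtgtctgtgt
Ptprc peak 4: ttgtgcgtgtgtatgacatctaAATGTGAt
Dusp6 peak 7: ttgagctggaatttattataaGAATGTAaa
Ptpn22 peak 1: gcagataaagcTACTTGAAtactgctataa
Ppp1r3b peak 12: agaggggaaatGCACTTTAaaaaaaatcac
Ppp1cb peak 2: tgtggttttagTGGTGCTtggttgtttcat
Ppp1r15b peak 6: aagtcttgcagTGGTGCTttagatctgtgt
Ppp1r7 peak 3: gttctggaaaaTGCTGCTctagactgttta
Ppp2r1b peak 1: tgggtgtatctTGCTGCTAatgtgtgatgt
The last window, of the most-read phosphatase peak, holds a 6-nt let-7 match, TACCTC, which 2.62% of all peaks and 2.30% of phosphatase peaks hold.
Dusp6 peak 5: aaacagcatatTACCTCtgtacaaaattct

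Summed over all 174 peaks, phosphatase reads were close in both genotypes, whereas single peaks differed more, as given below. The sum was 2509 scaled reads in KO, or 0.671% of all KO reads, and 2445 in WT, or 0.659% of all WT reads. No phosphatase peak of the 174 passed an adjusted p of 0.05 (Benjamini-Hochberg, over the p-values of all peaks in the authors' deposited table), where 0.601% of all peaks passed. The smallest adjusted p, from the authors' deposited table after Benjamini-Hochberg adjustment, was 0.156 for peak 4 of Ppp1r3b. At an unadjusted p below 0.05 in the authors' deposited table, 4 phosphatase peaks were lower in KO, which is 2.30% against 2.72% of all peaks, and 7 were higher in KO, which is 4.02% against 1.48% of all peaks. These 11 peaks lay in 4 genes with lower and 6 genes with higher values, Ppp1r3b being among both. All but peak 4 of Dusp5 and peak 6 of Ppp1r3b held fewer than 50 scaled reads in both genotypes together.

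Of the 174 peaks, 93 had a lower and 80 a higher value in KO, and 1 was listed at 0 in both genotypes (peak 3 of Ppp6r3). The lower ones were 53.4% against 56.4% of all peaks, and the higher ones 46.0% against 43.3%. Ratios are given throughout as log2 of KO over WT, with 1 added to the scaled reads of each, which makes the differences of thinly covered peaks look smaller than they are. The median ratio was −0.09, with quartiles of −1.53 and 0.72, beside −0.20 over all peaks, with quartiles of −1.33 and 0.61. The 67 phosphatase peaks with at least 20 scaled reads in both genotypes together had a median of 0.05, with 38 higher and 29 lower in KO, beside 0.00 over all peaks of that depth. Of the 93 lower peaks, 40 were listed at 0 in KO, and the deepest of them held 19.5 scaled reads in WT. With the peak at 0 in both genotypes counted in each, 41 phosphatase peaks were listed at 0 in KO, or 23.6% against 16.6% of all peaks, and 14 in WT, or 8.05% against 7.87%.

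**Figure D1:**
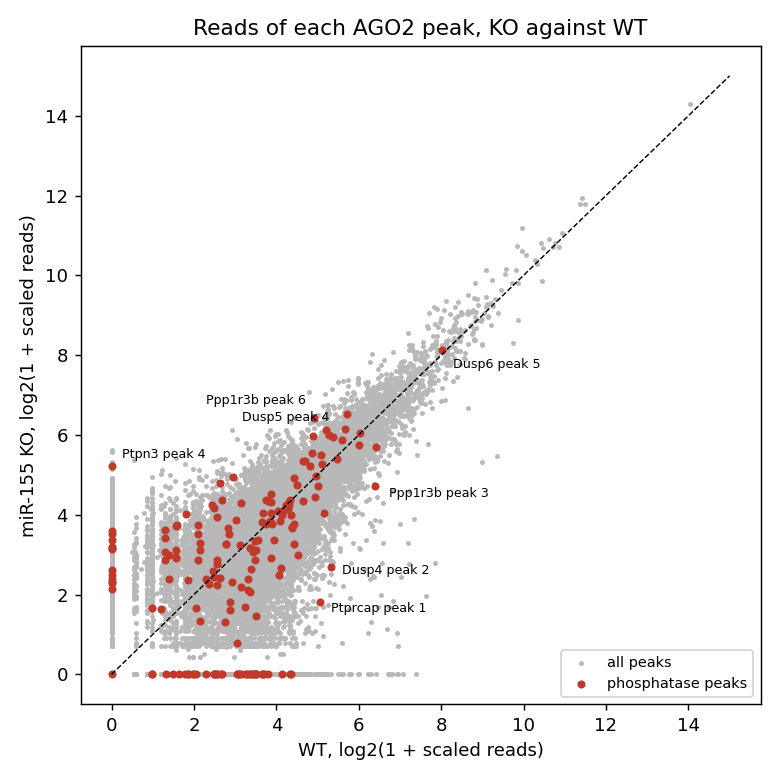
Reads of each AGO2 peak, KO on the vertical and WT on the horizontal axis, both as log2(1 + scaled reads) pooled over 12 libraries; grey points are all 14634 peaks, red points the 174 phosphatase peaks, and the dashed line marks equality. Peak 5 of Dusp6, with 278 scaled reads in KO and 258 in WT, is the deepest phosphatase peak and lies near the line, while points along an axis are peaks listed at 0 in one genotype.

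Among the 24 phosphatase peaks with at least 50 scaled reads, the ratio ranged from −1.68 to 1.50 with a median of 0.34, beside 0.07 over the 2990 such peaks in the table. Of these 24, 20 lay within 1 log2 unit of equality, or 83.3%, against 86.3% of all such peaks. Phosphatase peaks were somewhat thinner than the rest, with a median of 13.9 scaled reads beside 17.0 over all peaks. Their position and base composition were close to those of the whole table: the median start was nt 897 of the 3′ UTR beside nt 880, the median width 39.5 nt beside 39 nt, and the median GC content 37.5% beside 36.8%. By exact match of the peak sequence to GENCODE M21 transcripts, 167 of the 174 were placed on GRCm38, 164 of them in annotated 3′ UTRs and 3, all of Ppm1a, on a transcript for which no coding region is annotated. Of those placed, 161 lay in the last exon of the transcript and 6 in an earlier exon, 5 of Inpp4b and 1 of Inpp5k. These 6 were counted as 3′ UTR from the transcript used, whose annotated 3′ UTR spans several exons. Whether those exons are coding in other transcripts of the 2 genes was not looked up.

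Reads were concentrated in few genes. Dusp6, Ptprc and Ppp1r3b held 35.7% of phosphatase reads, and these with Dusp4, Ppp1cb, Inpp4a, Ppp1r15b and Dusp5 held 62.5%. Sums per gene are not divided by 3′ UTR length, and they count AGO2-bound fragments, not transcripts. By gene, 25 sums were higher and 29 lower in KO, beside 1791 higher and 2369 lower over the whole table. Of the 22 genes with at least 50 scaled reads, 18 lay within 1 log2 unit of equality, or 81.8%, against 90.0% of all genes of that depth. The exceptions were Dusp5, Ptpn3 and Ptp4a2, with more reads in KO, and Ppp1r16b, with fewer. Of the 54 phosphatase genes, 10 were listed at 0 in KO, with between 0.976 and 20.3 scaled reads in WT. Ppp3cb alone was listed at 0 in WT. Over the whole table of 4165 genes, 417 were listed at 0 in KO and 172 in WT. For KO this is a smaller share than among the phosphatase genes, and for WT a larger one.

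**Figure D2:**
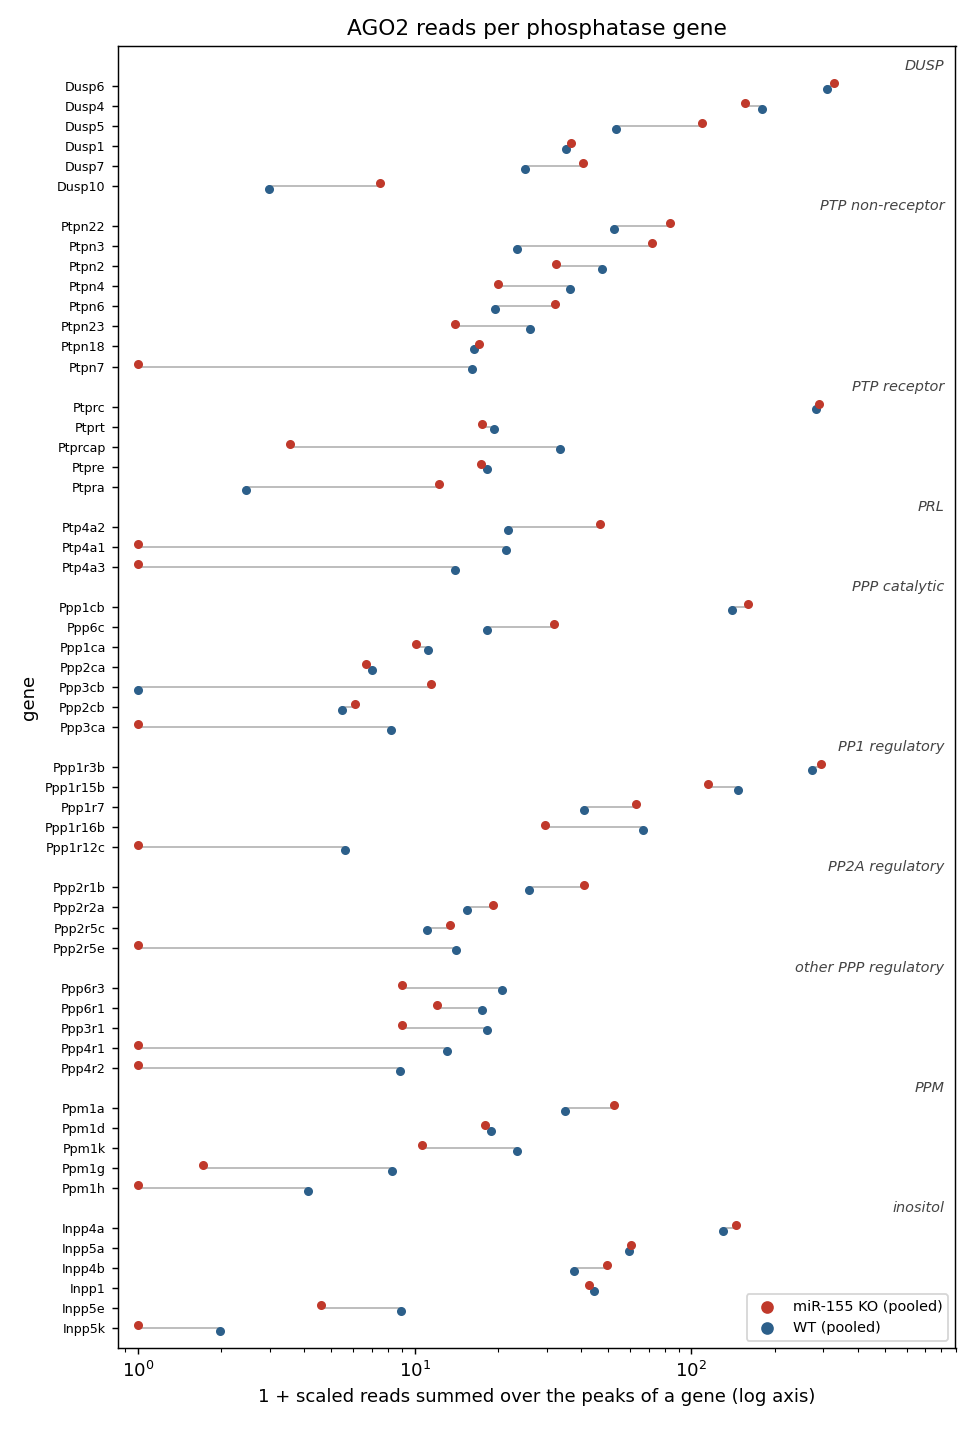
AGO2 reads of the 54 genes, as 1 + scaled reads summed over the peaks of a gene on a log axis, with KO in red and WT in blue, pooled over 12 libraries each and grouped by family; a point at 1 is a gene listed at 0. The pairs lie close together for the genes with most reads, such as Dusp6 and Ptprc, and apart for Dusp5, Ptpn3 and Ptp4a2 (more in KO) and Ppp1r16b (fewer in KO).

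With PPP catalytic and regulatory subunits counted as separate groups, the DUSPs held the most reads of any group. They had 673 scaled reads in KO and 599 in WT over 24 peaks in 6 genes. Of these peaks, 16 were higher and 8 lower in KO, with a median ratio of 0.29, and the gene sum was higher in KO for all but Dusp4. None passed the adjusted test. Dusp6, a cytoplasmic phosphatase of ERK, had 328 scaled reads in KO and 307 in WT. Its peak 5 (chr10:99267209-99267242, GRCm38, plus strand, exon 3 of 3) alone held 84.5% of them, with 278 in KO and 258 in WT. That peak had no 7-nt or 8-nt match to any of the 16 families searched. Its peak 7, with the miR-181 match shown above, had 25.6 scaled reads in KO and 21.6 in WT.

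Dusp5, a nuclear phosphatase of ERK, had 108 scaled reads in KO and 52.3 in WT, a log2 ratio of 1.03. The difference ran the same way in all 4 of its peaks. Peak 1 had 19.6 in KO and 5.37 in WT, peak 2 had 6.91 in KO and 1.64 in WT, and peak 3 had 18.7 in KO and 7.76 in WT. Peak 4 (chr19:53542308-53542347, GRCm38, plus strand, exon 4 of 4), which holds the overlapping miR-181 and miR-23 matches, had 62.9 in KO and 37.5 in WT. In the authors' deposited table its p was 0.0128, and the Benjamini-Hochberg adjusted p over all peaks was 0.653. Peaks of a gene share a transcript and are not independent of one another.

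Dusp4, a nuclear phosphatase of several MAP kinases, had 156 scaled reads in KO and 179 in WT. A cluster of 4 peaks between nt 160 and nt 328 of its 3′ UTR held 89.7% of these, 143.8 in KO and 157.0 in WT. Within the cluster the peaks differed: peaks 1 and 4 had 57.2 and 60.4 in KO, against 47.2 and 40.6 in WT, whereas peak 2 (chr8:34818995-34819013, GRCm38) had 5.47 in KO and 39.3 in WT. The p of peak 2 in the authors' deposited table was 0.134. Among the other DUSPs, Dusp1, which inactivates stress-activated MAP kinases, had 35.7 scaled reads in KO and 34.4 in WT. Dusp7, which acts on ERK, had 39.4 in KO and 24.0 in WT. Dusp10, a phosphatase of JNK and p38, was thin, with 6.49 in KO and 1.98 in WT.

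**Figure D3:**
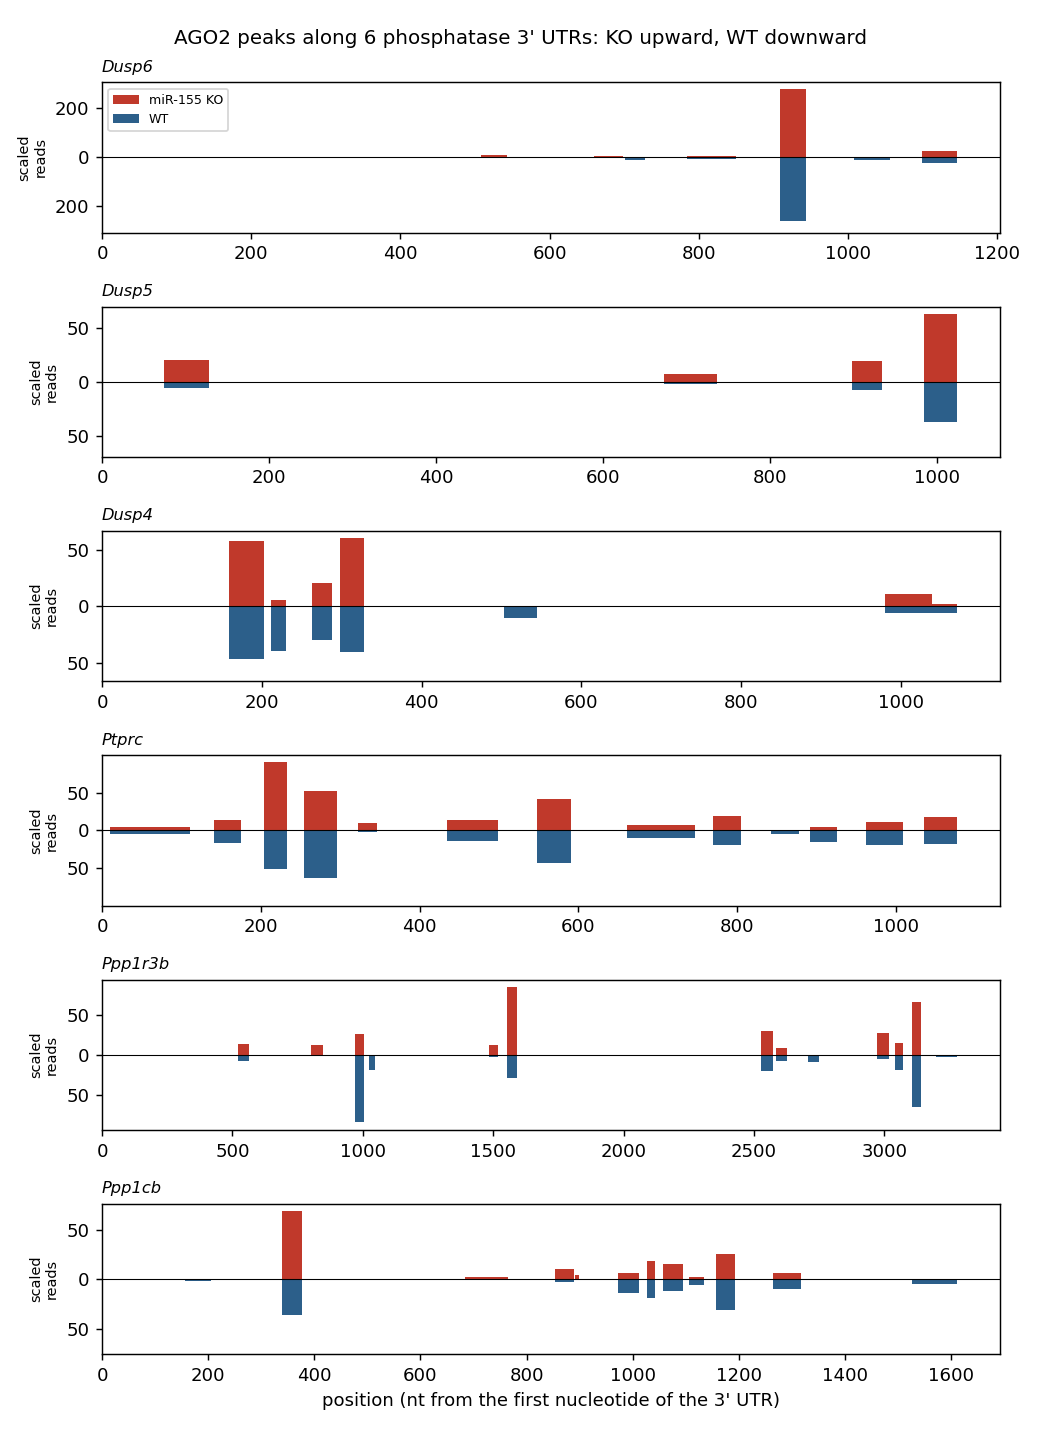
AGO2 peaks along the 3′ UTRs of Dusp6, Dusp5, Dusp4, Ptprc, Ppp1r3b and Ppp1cb, with the position in nt (nt 1 is the start of the 3′ UTR) on the horizontal axis and scaled reads on the vertical axis, KO upward in red and WT downward in blue; a bar spans a peak. A single peak dominates Dusp6, all 4 Dusp5 bars are taller in KO, and in Ppp1r3b peaks taller in KO and peaks taller in WT lie side by side.

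Receptor-type tyrosine phosphatase symbols covered 17 peaks in 5 genes, with 334 scaled reads in KO and 352 in WT. Of these peaks 5 were higher and 12 lower in KO, with a median ratio of −0.15. Ptprc encodes CD45, which activates Src-family kinases of T cells by removing an inhibitory phosphate. It had 13 peaks and 287 scaled reads in KO and 282 in WT. Its peaks 3, 4 and 7 held 60.3% of them, with more reads in KO in the first and slightly fewer in the others. Peak 3 (chr1:138064274-138064302, GRCm38, minus strand, exon 30 of 30) had 90.6 in KO and 51.7 in WT, peak 4 had 53.0 in KO and 63.0 in WT, and peak 7 had 41.1 in KO and 43.6 in WT. The miR-181 match at peak 3 lies at its 5′ edge, from nt 198 to nt 204, and reaches only the first nucleotide of the peak itself, nt 204. Of its thinner peaks, peak 11 differed most in ratio among those of at least 20 scaled reads, with 4.61 in KO and 15.7 in WT. Ptprcap had 1 peak, with 2.54 scaled reads in KO and 32.4 in WT, a log2 ratio of −3.24, the lowest among phosphatase peaks of at least 20 scaled reads. Its p in the authors' deposited table was 0.322. Ptpre and Ptprt, both receptor-type phosphatases, had close values: 16.4 and 16.6 scaled reads in KO, against 17.2 and 18.4 in WT.

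Non-receptor tyrosine phosphatases covered 22 peaks in 8 genes, with 264 scaled reads in KO and 230 in WT, 10 peaks being higher and 12 lower in KO. Ptpn22, which works with the kinase Csk to damp T cell receptor signalling, had 82.6 scaled reads in KO and 51.6 in WT. Most lay in peak 1 (chr3:103912077-103912112, GRCm38, plus strand, exon 23 of 23), which holds the 8-nt miR-26 match and had 70.6 in KO and 49.6 in WT, with p = 0.0978 in the authors' deposited table. Ptpn3, a phosphatase with FERM and PDZ domains, had 70.8 scaled reads in KO and 22.5 in WT. Its peak 4 (chr4:57192960-57192992, GRCm38, minus strand, exon 26 of 26) had 36.5 in KO and was listed at 0 in WT, the most reads of any phosphatase peak listed at 0 in one genotype. In the authors' deposited table its p was 0.0208, with a Benjamini-Hochberg adjusted p of 0.832 over all peaks. Ptpn6, which encodes the inhibitory phosphatase SHP-1, had 31.3 in KO and 18.5 in WT. Ptpn2, a phosphatase of JAK and STAT proteins, had 31.3 in KO and 46.5 in WT. Ptpn7, which acts on MAP kinases in blood cells, was listed at 0 in KO and had 15.1 in WT over its 3 peaks. Ptpn11 and Ptpn1 had no peak in the table used here.

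The PRL phosphatases (Ptp4a), small prenylated enzymes of the membrane, had 6 peaks in 3 genes. Ptp4a2 had 45.9 scaled reads in KO and 20.7 in WT, with the difference in its first 2 peaks. Peak 1, only 9 nt wide, had 17.97 in KO and 4.40 in WT, with p = 0.0178 in the authors' deposited table. Peak 2 had 15.2 in KO and 2.49 in WT. Its peak 3 had 12.7 in KO and 13.8 in WT. Ptp4a1 and Ptp4a3 were both listed at 0 in KO, with 20.3 and 12.9 scaled reads in WT.

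Catalytic subunits of the PPP family had 22 peaks in 7 genes, with 221 scaled reads in KO and 184 in WT, 11 peaks higher and 11 lower in KO. Ppp1cb, the beta catalytic subunit of protein phosphatase PP1, had 160 scaled reads in KO and 139 in WT over 12 peaks, 5 higher and 7 lower in KO. Its deepest peak, peak 2 (chr5:32491398-32491436, GRCm38, plus strand, exon 8 of 8), holds the miR-29 match and had 68.8 in KO and 36.2 in WT, with p = 0.623 in the authors' deposited table. Ppp6c, the catalytic subunit of PP6, had 30.9 in KO and 17.2 in WT. The PP2A catalytic genes were thin in both genotypes: Ppp2ca had 5.66 in KO and 6.04 in WT, and Ppp2cb had 5.07 in KO and 4.47 in WT. The calcineurin catalytic genes, whose products activate NFAT, had 1 thin peak each, Ppp3ca listed at 0 in KO with 7.23 in WT and Ppp3cb with 10.5 in KO and listed at 0 in WT. Both peaks hold a 7-nt miR-30 match. Ppp3cc had no peak in the table used here.

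Regulatory subunits of PP1 had 28 peaks in 5 genes, with 497 scaled reads in KO and 529 in WT, 15 peaks higher and 13 lower in KO. Ppp1r3b, which brings PP1 to glycogen, had sums of 293 scaled reads in KO and 272 in WT, yet its 13 peaks ranged in ratio from −4.34 to 2.16. Peak 3 (chr8:35385835-35385868, GRCm38) had 25.2 in KO and 82.8 in WT, and the neighbouring peak 4 (chr8:35385887-35385911, GRCm38) was listed at 0 in KO with 19.3 in WT. Peak 6 (chr8:35386415-35386454, GRCm38) had 84.7 in KO and 29.4 in WT, and peak 12, with the miR-17 match, had 65.6 in KO and 64.7 in WT. Peak 10, with an 8-nt miR-23 match, had 26.5 in KO and 5.20 in WT. In the authors' deposited table p was 0.305 for peak 3, 0.0014 for peak 4 and 0.0421 for peak 6. The second peak had 12.4 in KO and 2.00 in WT, with p = 0.0153 in the authors' deposited table. Peaks 3, 4 and 6 hold no 6-nt, 7-nt or 8-nt match to miR-155 and no 7-nt or 8-nt match to the other families. The near-equal sum of Ppp1r3b covers peaks that differed in both directions, as did peaks of 24 of the 34 phosphatase genes with 2 or more differing peaks, or 70.6%, against 74.7% of the 2462 such genes in the table.

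Ppp1r15b, which directs PP1 to the translation factor eIF2, had 114 scaled reads in KO and 147 in WT, and its deepest peak, peak 4 (chr1:133138934-133138979, GRCm38), had 51.1 in KO and 84.8 in WT. Ppp1r7, a conserved nuclear regulator of PP1, had 61.9 in KO, all in peak 3 with its miR-15/16 match, and 40.0 in WT, of which peak 3 held 28.8. Its peak 1 was listed at 0 in KO with 10.2 in WT, and the authors' deposited table gives p = 0.0451. Ppp1r16b, a membrane-targeting subunit of PP1, had 28.6 in KO and 65.6 in WT. Its peak 1 was listed at 0 in KO with 19.5 in WT, and its peak 3 (chr2:158766080-158766117, GRCm38) had 15.5 in KO and 34.6 in WT, with p = 0.0525 in the authors' deposited table.

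Subunits of the other PPP enzymes were thinner. PP2A regulatory genes had 70.6 scaled reads in KO and 62.5 in WT over 9 peaks, of which the single peak of Ppp2r1b, a scaffold subunit, held 40.0 in KO and 24.9 in WT. In Ppp2r2a, a substrate-selecting subunit, peak 3 had 14.5 in KO and 4.91 in WT, with p = 0.0491 in the authors' deposited table. Regulatory genes of calcineurin, PP4 and PP6 together had 27.1 in KO and 73.5 in WT over 11 peaks, 3 higher and 7 lower in KO, with a median ratio of −3.06. Of these 11 peaks, 6 were listed at 0 in KO alone, 3 in WT alone and 1 in both, and no gene among them reached 30 scaled reads. Ppp3r1, the regulatory subunit of calcineurin, had 8.04 in KO and 17.3 in WT; its peak 1 was listed at 0 in KO with 9.89 in WT, and p was 0.0477 in the authors' deposited table.

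PPM phosphatases had 78.6 scaled reads in KO and 84.7 in WT over 10 peaks in 5 genes, 2 higher and 8 lower in KO. Ppm1a, which dephosphorylates stress kinases and SMAD proteins, had 51.3 in KO and 34.0 in WT. Its peak 1, with an 8-nt miR-27 match, had 29.9 in KO and 6.67 in WT, with p = 0.0490 in the authors' deposited table. Ppm1d, a phosphatase induced by p53, had 16.9 in KO and 17.8 in WT.

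Inositol phosphatases had 297 scaled reads in KO and 276 in WT over 25 peaks in 6 genes, 13 higher and 12 lower in KO, with a median ratio of 0.01. Inpp4a, which removes a phosphate from a phosphoinositide product of PI3K, had 144 in KO and 129 in WT over 9 peaks. Its relative Inpp4b had 48.5 in KO and 36.5 in WT over 7 peaks, of which peaks 1 to 5 lie in earlier exons (5, 8, 11, 19 and 21 of 24) of the transcript used. Inpp5a, which acts on the soluble calcium messenger inositol trisphosphate, had 59.3 in KO and 58.3 in WT. Its peak 4, with an 8-nt miR-142-3p match, had 30.3 in KO and 30.1 in WT, while peak 1 had 6.93 in KO and 22.1 in WT, and peak 3 had 17.0 in KO and 4.59 in WT. In Inpp1, which acts on soluble inositol phosphates, peak 1 (chr1:52789600-52789633, GRCm38, minus strand) had 5.33 in KO and 16.3 in WT, where the authors' deposited table gives p = 0.0205 and the Benjamini-Hochberg adjusted p over all peaks was 0.832. Its peak 2 had 36.2 in KO and 27.2 in WT.

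**Figure D4:**
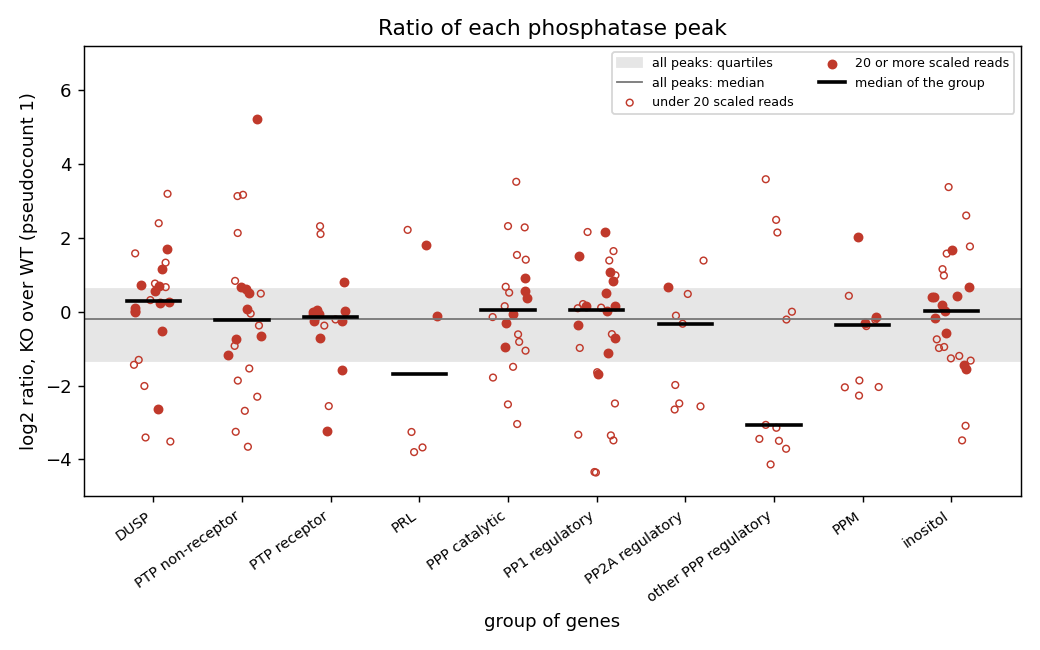
Log2 ratio of KO over WT (1 added to scaled reads) of each phosphatase peak, by family; filled points have at least 20 scaled reads in both genotypes together, black lines are family medians, and the grey line and band are the median and quartiles of all peaks. Ratios far from 0 come mostly from open points, and the low median of the other PPP regulatory genes, −3.06, rests on thin peaks.

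Matches to miR-155 were rare in the genes kept by the rule, as they were in the whole table. Dusp2, Dusp11 and Inpp5d, left out by the rule, are not among the phosphatase peaks counted. Any peaks of theirs stay in the whole table. The shares of phosphatase peaks, with a match or past a threshold, thus do not describe all genes with these symbols. The search took 8-nt matches (AGCATTAA), both 7-nt matches within it and the 6-nt core GCATTA, on the transcript strand, each peak sequence including 6 nt on either side. A 7-nt or 8-nt match was present in 2 of 174 phosphatase peaks, or 1.15%, against 1.81% of all peaks, and with 6-nt matches in 4, or 2.30%, against 2.51%. Over the whole table, the median log2 ratio was −3.66 for the 67 peaks with an 8-nt match and −1.17 for the 102 with only the 6-nt core. Peak 11 of Ppp1cb (chr5:32492324-32492375, GRCm38), with an 8-nt match, had 6.32 scaled reads in KO and 10.2 in WT, with p = 0.343 in the authors' deposited table. In Ptprc, peak 12 with a 6-nt match had 11.9 in KO and 19.9 in WT, with p = 0.311 in the authors' deposited table. In Ptp4a1, peak 1 with a 6-nt match, which also holds the 8-nt miR-29 match, was listed at 0 in KO and had 11.8 in WT, with p = 0.0604 in the authors' deposited table. In all 3 of these the value was lower in KO, as it was in the only other such peak, peak 5 of Ptpn2. There the reads were listed at 0 in KO and 11.6 in WT, with p = 0.786 in the authors' deposited table.

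For 15 other families of microRNAs, 7-nt and 8-nt matches were searched in the same way. The 8-nt motifs were GCACTTTA (miR-17), TTTGCACA (miR-19), GTGCAATA (miR-25/92), TGCTGCTA (miR-15/16), CTACCTCA (let-7), ACACTACA (miR-142-3p), ATAAGCTA (miR-21), TGAATGTA (miR-181), TGTTTACA (miR-30), TGGTGCTA (miR-29), ACTGTGAA (miR-27), AATGTGAA (miR-23), CTGAGCCA (miR-24), TACTTGAA (miR-26) and AGTTCTCA (miR-146). The 7-nt motifs are these without their first or last nucleotide. At least 1 match was present in 59 phosphatase peaks, 33.9%, against 33.7% of all peaks.

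The families differed in share, and every share rests on few peaks. Matches to miR-23 lay in 11 phosphatase peaks, 6.32% against 3.05% of all peaks. Matches to miR-181 lay in 6, 3.45% against 1.79%. For miR-15/16 there were 9 (5.17% against 4.58%), for miR-17 there were 8 (4.60% against 3.71%), and for miR-25/92 there were 7 (4.02% against 2.77%). On the other side, miR-142-3p matched 2 peaks (1.15% against 2.94%), miR-19 matched 3 (1.72% against 3.05%), and miR-24 and miR-146 matched none (against 1.13% and 0.588%). The remaining families were miR-30, with 3.45% of phosphatase peaks against 2.92% of all peaks, miR-26 with 2.87% against 2.04%, miR-27 with 2.30% against 3.59%, miR-29 with 2.30% against 2.56%, let-7 with 1.15% against 1.93% and miR-21 with 0.575% against 1.60%.

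**Figure D5:**
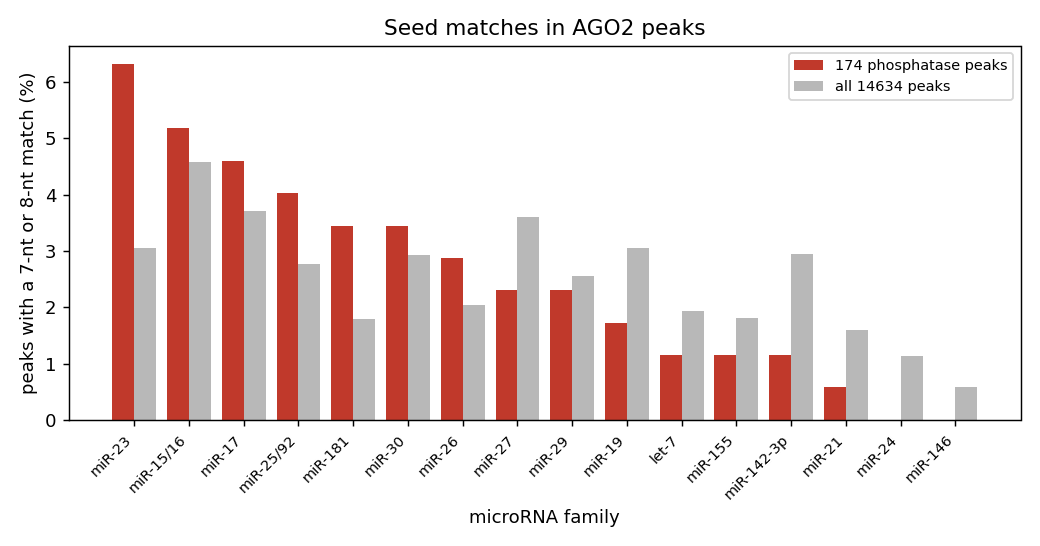
Share of AGO2 peaks with a 7-nt or 8-nt match to each of 16 microRNA families, in percent, with the 174 phosphatase peaks in red and all 14634 peaks in grey. The red bars of miR-23 and miR-181, 6.32% and 3.45%, stand above their grey bars, 3.05% and 1.79%, and rest on 11 and 6 peaks. Of these peaks, 3 hold both matches and count in both bars.

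The 6 peaks with a miR-181 match held 6.99% of phosphatase reads, whereas peaks with that match held 1.37% of the reads of the whole table. They were peak 4 of Dusp5, peak 7 of Dusp6, peak 1 of Inpp4a, peak 2 of Inpp5a, peak 8 of Ppp1cb and peak 3 of Ptprc. Together they had 209 scaled reads in KO and 137 in WT, and 5 of the 6 were higher in KO; their median ratio was 0.55, beside 0.11 over all peaks with that match. The exception, peak 1 of Inpp4a, had 9.33 in KO and 14.5 in WT. Most of these reads came from Ptprc and Dusp5. In the authors' deposited table, p was 0.0128 for the Dusp5 peak and 0.291 for the Ptprc peak. It was 0.825 for the Dusp6 peak, 0.546 for Inpp4a, 0.729 for Inpp5a and 0.976 for Ppp1cb. Not every match lay wholly within its peak, since flanking nucleotides were searched too. In Ptprc the match reached only the first nucleotide of the peak, nt 204. In Dusp6 it ran from nt 1144 to nt 1150, and the peak ended at nt 1146. In Ppp1cb it ran from nt 1091 to nt 1097, and the peak ended at nt 1095. In 3 of the 6 (Dusp5, Inpp5a and Ppp1cb) the miR-181 match overlapped a miR-23 match, sharing 5 nt in Dusp5 and Inpp5a and 4 nt in Ppp1cb, with the miR-181 match first in Dusp5 and Inpp5a (shared letters AATGT) and the miR-23 match first in Ppp1cb (shared letters TGAA). Both matches were present in 1.72% of phosphatase peaks and 0.342% of all peaks, 50 in all. Such peaks count in the shares of both families. The miR-23 match of Ptprc peak 4 ran from nt 294 to nt 300, past the end of the peak at nt 295.

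Phosphatases outside these symbols, and partners or substrates of the families, were looked up as a list of 52 genes, of which 33 had peaks, 128 in all. None of those peaks passed an adjusted p of 0.05 in either direction (Benjamini-Hochberg, over all peaks of the authors' deposited table), against 0.601% of all peaks. At an unadjusted p below 0.05 in that table, 2 were lower in KO, or 1.56% against 2.72% of all peaks, and 1 was higher, or 0.781% against 1.48%. Of the 128, 49 were higher and 79 lower in KO, the lower ones being 61.7% against 56.4% of all peaks, with a median log2 ratio of −0.37 beside −0.20 over all peaks. The smallest adjusted p, by the Benjamini-Hochberg method on the authors' deposited table, was 0.587 for peak 1 of Ssh2, a phosphatase of the actin-severing protein cofilin, with 143 scaled reads in KO and 260 in WT. Among NFAT genes whose products calcineurin dephosphorylates, Nfatc3 had 190 scaled reads in KO and 124 in WT, Nfatc2 had 95.5 in KO and 114 in WT, and Nfatc1 had 25.3 in KO and 38.7 in WT. Nfat5, a relative that calcineurin does not regulate, had 258 in KO and 310 in WT.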

How the data were processed

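The submitters' processing notes name Bowtie 0.12.7 and mm9. Peak calling, read scaling, duplicate handling and the test that gave the p-values were not given in the sources used here. Values in the deposited table are, per the file headers, log2 reads for KO and for WT, a log2 ratio of WT over KO, and a p-value comparing their binding. The ratio equalled the difference of the deposited log2 columns to within 6e-05. From these columns, scaled reads were computed as 2 to the power of the log2 value minus the pseudocount of 1, and the ratio was turned to KO over WT. P-values were adjusted over all 14634 peaks by the Benjamini-Hochberg method, with a threshold of 0.05. What spread between libraries these p-values hold is unknown, and a planned test per library, with a linker term or a replicate block, could not be made from pooled values. The labels call the libraries biological replicates without saying which mice or cultures they came from.

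The members and lists were chosen with earlier results of these data known. Genes named were the 12 with most reads, the 8 peaks with the smallest p, the 6 highest and 6 lowest ratios among peaks of 20 or more reads (1 per gene), peaks with a miR-155 match of 7 or 8 nt, the most-read gene of each family, the 5 genes with most peaks, and 19 T cell phosphatases; any other gene given with values, and the 6-nt let-7 match, was picked once values had been seen. MicroRNA sequences matched 16 families in RefSeq (GRCm38.p6); miR-150 was not searched. Positions on GRCm38 come from exact sequence matches to GENCODE M21 and are not those of mm9. Scripts used Python 3.11.15, NumPy 2.4.6, pandas 2.3.3, SciPy 1.17.1 and matplotlib 3.10.9, and the adjustment and site search were tested on simulated data. From the list of other phosphatases and partners, values of 1 gene were left out of the text and are not reported here; it stays in the counts.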

Additional observations from a re-analysis of the deposited data

How the results depend on the processing

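The count of phosphatase peaks past the adjusted threshold was 0 at thresholds of 0.05, 0.01 and 0.1, under Bonferroni adjustment, among peaks of at least 10 scaled reads and among peaks with reads in both genotypes; at an unadjusted p below 0.05 it was 11. The median log2 ratio of KO over WT was −0.09, and −0.09 too without the Inpp genes and Ptprcap (chosen after seeing the data). It was 0.012 for peaks of at least 10 scaled reads, 0.047 for at least 20, 0.11 without a pseudocount and 0.10 with one where both genotypes had reads, 0.10 after centring on all peaks, −0.071 with 1 value per gene and −0.11 without Ppp1r genes. The sign of that median thus turned with the handling of thin peaks and of those listed at 0, and with centring. The log2 ratio of summed reads was 0.04, and 0.025 with equal totals, −0.029 without the most-read peak of each gene and 0.048 without the Inpp genes and Ptprcap (chosen after seeing the data). Peaks with a miR-155 match numbered 2, and 4 with 6-nt matches. Matches to the other families lay in 33.9% of phosphatase peaks, in 15.5% when only 8-nt matches counted (11.5% of all peaks) and in 46.3% of peaks with at least 20 scaled reads (41.5% of all such peaks). No paired analysis was possible because the table pools the libraries of a genotype, so the replicate block and the linker term were not run and no library could be left out. The unknown depth and the lack of a value per library limit every fold given, most of all for peaks under 20 scaled reads.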

Other observations

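Near-equal pooled values carried very different p-values. Peak 4 of Ppp1r3b was listed at 0 in KO with 19.3 scaled reads in WT, and its p in the authors' deposited table was 0.0014. Peak 1 of Ppp1r16b was listed at 0 in KO with 19.5 scaled reads in WT, and its p in the authors' deposited table was 0.297. Peak 3 of Ppp6r3 was listed at 0 in both genotypes, as were 41 peaks in the whole table, and has a p of 0.445 in the authors' deposited table.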
